A study of Homo sapiens with 4 samples.

Results

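The genes described here encode the enzymes that remove peroxides and superoxide and that make, recycle or use thioredoxin and glutathione. They were chosen by gene symbol alone, and 46 of the 17630 genes analysed carry one of these symbols. They comprise 6 peroxiredoxins with sulfiredoxin, 5 thioredoxins and thioredoxin reductases, 7 glutathione peroxidases, 4 enzymes of glutathione synthesis and reduction, 3 superoxide dismutases with catalase, both heme oxygenases with the quinone reductase NQO1, and 16 glutathione S-transferases.

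Their RNA was measured by sequencing in 4 libraries of H1, a single established line of human embryonic stem cells, during stepwise culture towards blood. Undifferentiated cells (hESC) were the starting point, and no cell sort is stated for them. APLNR+ mesoderm cells (MES) were sorted on day 2, after activin A at 40 ng/ml and BMP4 at 50 ng/ml. CD31+CD34+ cells, labelled as HEPs (HEP), were sorted on day 4, after a change to VEGF at 40 ng/ml and bFGF at 50 ng/ml for 2 days. CD31+CD43+ cells, labelled as HPCs (HPC), were sorted on day 7, after 3 more days in VEGF and bFGF with SB-431542, an inhibitor of the activin and TGF-beta type I receptors. Each stage is represented by 1 library, so no difference could be tested against the spread between replicates. A gene is called higher or lower here by size alone, when the log2 of (value + 1) differed by at least 1 and the value was 5 or more in the higher library.

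Peroxiredoxins and glutathione peroxidases both reduce hydrogen peroxide, and they are fed by separate chains. Peroxiredoxins are mostly reduced by thioredoxin, which thioredoxin reductase recharges with electrons from NADPH. Glutathione peroxidases are mostly reduced by glutathione, which is built in consecutive steps by glutamate-cysteine ligase and glutathione synthetase and recharged by glutathione reductase. Superoxide dismutases turn superoxide into peroxide, catalase splits peroxide without either chain, and glutathione S-transferases couple glutathione to electrophiles. Red blood cells and their precursors are rich in catalase, PRDX2 and GPX1, and many genes of these chains are targets of the transcription factor NRF2 (NFE2L2).

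Several of these enzymes share a feature that can be read in their messages, the in-frame TGA codon that is translated as selenocysteine, the catalytic residue of most selenoenzymes. The stretches around it are shown because this codon marks which peroxidases and reductases depend on selenium. They are coding sequence from GENCODE 29, 5′ to 3′, with the selenocysteine codon in capitals.
GPX1: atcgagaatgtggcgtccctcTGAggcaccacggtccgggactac
GPX2: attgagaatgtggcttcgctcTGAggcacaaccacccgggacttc
GPX3: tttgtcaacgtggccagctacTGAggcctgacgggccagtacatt
GPX4: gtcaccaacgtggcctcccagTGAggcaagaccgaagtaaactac
TXNRD1: agcatcctccaggctggctgcTGAggttaa
TXNRD2: gaccccacggtgacaggctgcTGAgggtaa
The codon is number 49 of 203 in GPX1, 40 of 190 in GPX2, 73 of 226 in GPX3 and 73 of 197 in GPX4, ahead of the middle of each message. In the reductases it is the last codon but 1 before the stop codon, number 550 of 551 in TXNRD1 and 522 of 523 in TXNRD2. No such codon is annotated in the transcripts of GPX5, GPX7, GPX8 and TXNRD3 that were read. The transcripts read for GPX8 and TXNRD3 held only 90 and 133 codons, so the absence describes these transcripts and not the enzymes.

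The letters TGACNNNGC, the core of the antioxidant response element bound by NRF2, were searched on both strands of the 250 bases before the start of each gene. They were present in 8 of the 37 members that had a promoter sequence (GCLM, GPX2, GSTA4, GSTM1, GSTM5, GSTO1, GSTP1 and TXNRD1), against 3013 of 27305 promoters in all (11%). A match describes the letters and not a bound site. Bases farther from the gene start were not searched, so a member without a match may hold the letters elsewhere. Some members, such as HMOX1 and PRDX1, had no promoter sequence here. Promoters of 4 genes are shown because the genes took different courses: TXNRD1 was lower in HEP than in MES, GCLM stayed under 5 throughout, GSTO1 was higher in MES than in hESC, and GSTP1 differed little between libraries. The sequences are from RefSeq on the build GRCh38.p14, read 5′ to 3′ on the strand of the gene, with the matches in capitals; the deposited values were made on hg19.
TXNRD1: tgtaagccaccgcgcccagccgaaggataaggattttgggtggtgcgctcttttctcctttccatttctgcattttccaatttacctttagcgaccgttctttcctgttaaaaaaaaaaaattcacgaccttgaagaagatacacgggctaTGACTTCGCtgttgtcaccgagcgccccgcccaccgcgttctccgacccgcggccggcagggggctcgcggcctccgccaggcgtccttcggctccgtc
GCLM: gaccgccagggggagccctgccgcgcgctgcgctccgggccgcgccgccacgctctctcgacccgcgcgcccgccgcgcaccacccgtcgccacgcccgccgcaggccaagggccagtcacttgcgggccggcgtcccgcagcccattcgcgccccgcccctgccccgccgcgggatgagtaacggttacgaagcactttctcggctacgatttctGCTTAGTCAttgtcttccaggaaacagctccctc
GSTO1: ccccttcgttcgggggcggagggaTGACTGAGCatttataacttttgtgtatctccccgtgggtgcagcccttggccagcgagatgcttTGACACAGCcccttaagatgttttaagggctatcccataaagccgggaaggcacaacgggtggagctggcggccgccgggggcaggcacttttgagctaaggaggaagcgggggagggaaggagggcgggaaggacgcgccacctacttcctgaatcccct
GSTP1: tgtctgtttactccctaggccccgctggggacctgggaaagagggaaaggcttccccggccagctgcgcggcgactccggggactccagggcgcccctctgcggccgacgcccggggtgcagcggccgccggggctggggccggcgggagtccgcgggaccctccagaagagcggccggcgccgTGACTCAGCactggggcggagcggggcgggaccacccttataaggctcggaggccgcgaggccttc
The TXNRD1 stretch is chr12:104215529-104215778 on the plus strand, with its match starting 99 bases before the gene start. The GCLM stretch is chr1:93909431-93909680 on the minus strand, with a match on the opposite strand at position -34, and the capitals therefore show the motif's complement read backwards. The GSTO1 stretch is chr10:104254642-104254891 on the plus strand and holds matches at positions -226 and -161. The GSTP1 stretch is chr11:67583562-67583811 on the plus strand, with its match at position -66.

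What was deposited is a normalised signal per gene whose exact measure is not stated, so levels are set side by side within a gene and not between genes. The values of a library summed to between 306724.0 and 426980.2, the members made up 0.869% to 1.01% of the sum, and the number of reads behind them is unknown. Median-of-ratios scaling, which sets the typical gene equal across libraries, would raise the log2 values of MES, HEP and HPC by 0.13, 0.46 and 0.48 relative to hESC. In the HEP library and, less so, in the HPC library, values followed the GC content of the transcript. Spearman's rho between GC content and the log2 difference was taken over the 6366 genes that averaged at least 5. It was 0.71 for HEP against MES, 0.53 for HPC against hESC and 0.22 for MES against hESC. For HPC against HEP it was -0.43, so there the log2 difference tended to be larger for transcripts of low GC content. All these points come from the same pair of libraries, so rho is given as a description. Differences are therefore also given after that trend was removed from each library. The removal was partial: for HEP against MES rho was then 0.13 over the same genes. Over the 30 members among them it went from 0.76 to 0.362. For MES against hESC rho over these members went from -0.195 to -0.406. Marker sums went with the stage labels: the 6 pluripotency markers summed to 2367.01, 810.45, 295.08 and 126.71 in hESC, MES, HEP and HPC, the 5 mesoderm markers to 0.33, 230.35, 23.58 and 2.58, and the 6 endothelial markers to 31.73, 65.2, 494.28 and 211.73. Of the sort antigens, APLNR was at 344.4 in MES and still at 249.75 in HEP, and CD34 was at 43.6 in HEP and 18.44 in HPC. SPN (CD43) reached 24.36 in HPC. PECAM1 (CD31) was at 1.83 in HEP and 7.49 in HPC, against 0.01 in hESC and MES. In these bulk samples, fewer cells of a type and less RNA per cell cannot be told apart.

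Peroxide defence genes did not move as a block along the 4 stages. The library with the highest value was hESC for 16 of the 35 members that reached 5 anywhere, MES for 6, HEP for GPX7 alone and HPC for 12. With the GC trend removed the 4 counts were 12, 5, 5 and 13, with median-of-ratios scaling 11, 5, 4 and 15, and with each library brought to a common total 10, 8, 6 and 11. The members highest in HPC as deposited were CAT, GPX1, GPX4, GSS, TXN2 and 7 glutathione S-transferases, while those highest in hESC included 5 of the 6 peroxiredoxins (4 with the GC trend removed and 3 with either other scaling), SOD1 and SOD2.

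**Figure D1:**
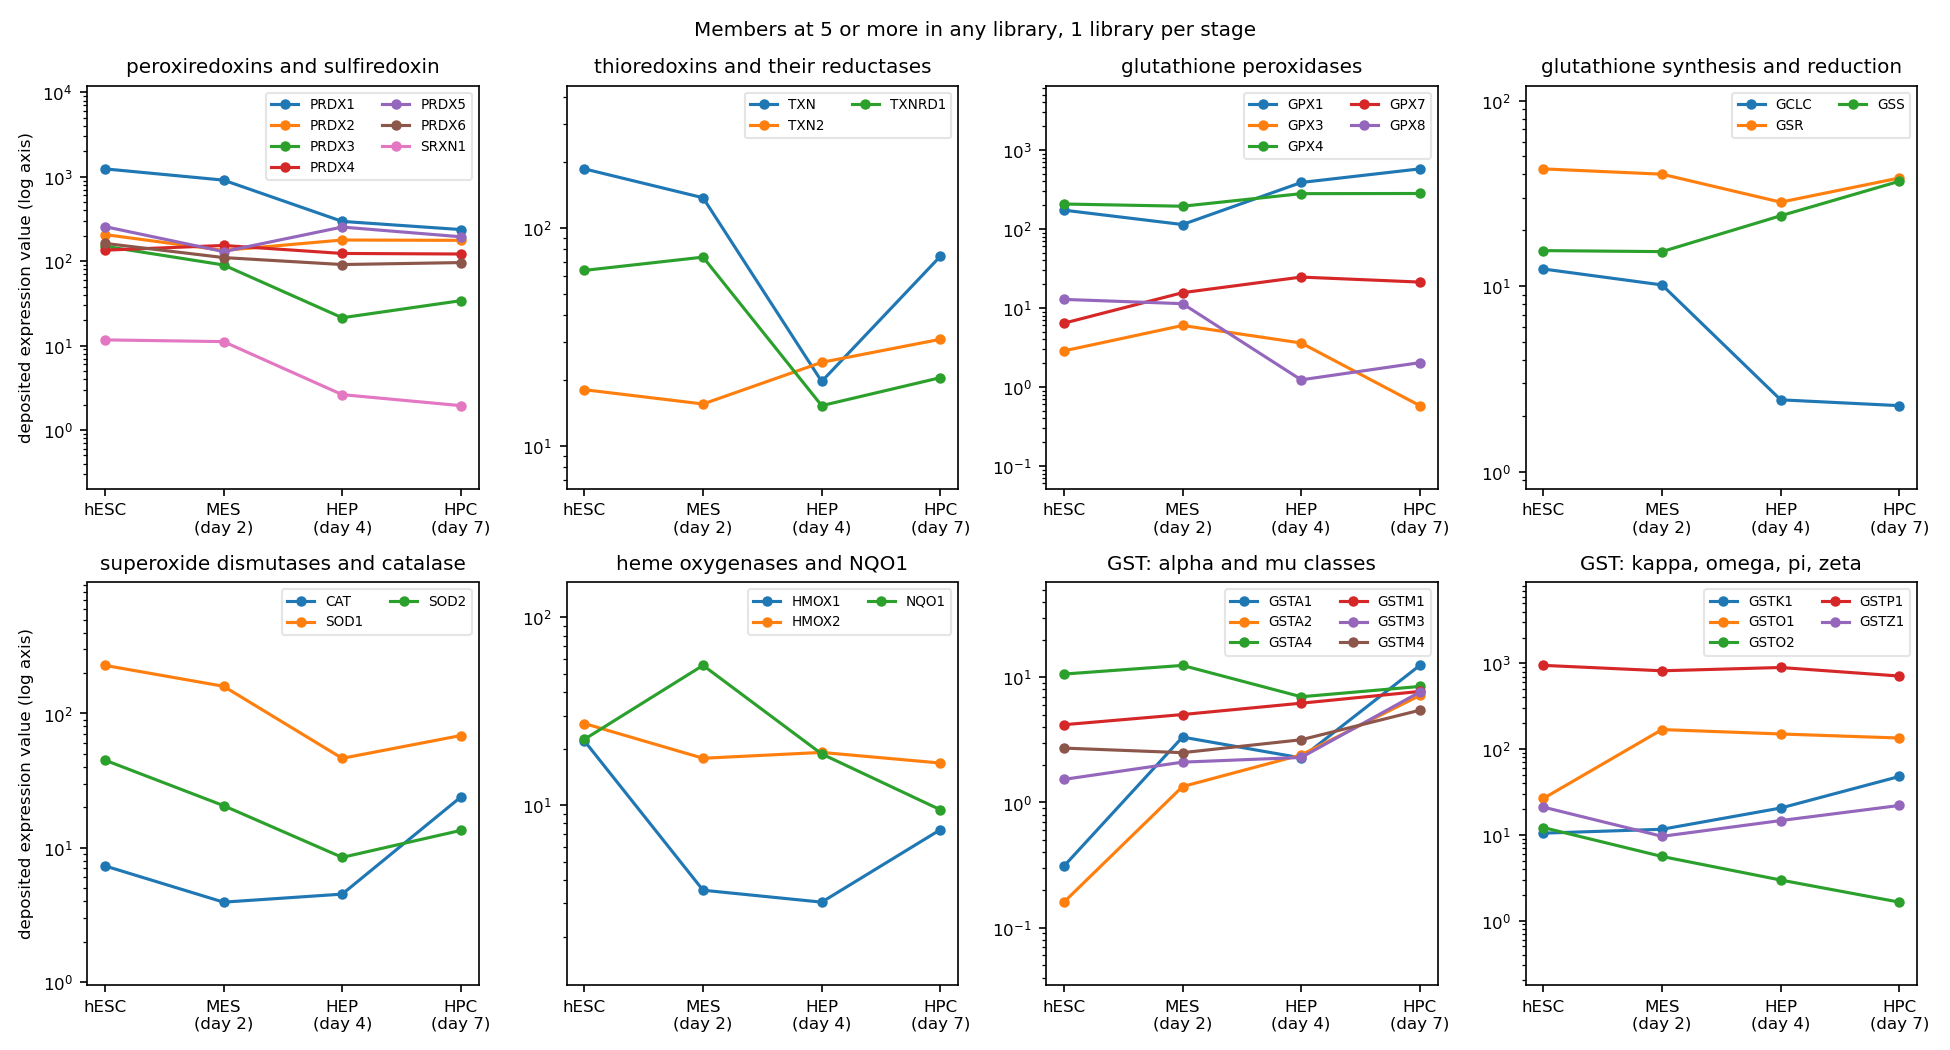
Deposited expression value (log axis) of the 35 members that reached 5 in any library, by stage from hESC to HPC, 1 library per stage, in 8 panels by role; lines join the values of 1 gene. PRDX1, PRDX3, TXN, TXNRD1, SOD1 and GCLC were lower in HEP than in MES, GPX1 and CAT were highest in HPC, and GSTP1 stayed between 711.26 and 947.22.

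In MES against hESC, 3 of the 46 members were higher (GPX7, GSTO1 and NQO1), where 3.79% of all genes were, and 3 were lower (GSTZ1, HMOX1 and SOD2), where 3.7% of all genes were. Removal of the GC trend also gave 3 of each, where 4.06% of all genes were higher and 2.17% lower. Median-of-ratios scaling gave 3 higher (3.98% of all genes) and 1 lower (2.46%), and a common total 4 higher (4.8%) and 1 lower (2.04%), HMOX1 in both.

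In HEP against MES, 1 member was higher, GPX1, where 3.31% of all genes were, and 10 were lower (GCLC, GPX8, NQO1, PRDX1, PRDX3, SOD1, SOD2, SRXN1, TXN and TXNRD1), where 13.9% of all genes were. Among genes that averaged at least 5, 33.3% of the 30 members were lower, beside 30.0% of all such genes, so the share of members was near the background. With the GC trend removed, 3 members were higher (CAT, GPX1 and GSTA2), where 3.65% of all genes were, and 3 lower (GPX8, SRXN1 and TXNRD1), where 4.97% were. Either other scaling gave 3 higher (GPX1, GSTK1 and PRDX5) and 9 lower. With median-of-ratios scaling 5.63% of all genes were higher and 10.3% lower, and with a common total 5.06% and 11.7%.

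In HPC against HEP, 7 members were higher (CAT, GSTA1, GSTA2, GSTK1, GSTM3, HMOX1 and TXN), which is 15.2% of the members, where 3.01% of all genes were; none was lower, where 3.57% of all genes were. Among genes that averaged at least 5, 4 of the 30 members were higher, beside 6.18% of all such genes, and none lower, beside 8.28%; with a common total 2 of the 30 were higher, beside 4.24%. With the GC trend removed, 6 were higher (GSTA2 was lost), where 2.65% of all genes were, and NQO1 was lower, where 3.49% were. Median-of-ratios scaling gave 7 higher (3.37% of all genes) and none lower (3.74%), and a common total 5 higher (2.21%) and 1 lower (5.01%).

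Over the whole course, HPC against hESC, 9 members were higher (CAT, GPX1, GPX7, GSS, GSTA1, GSTA2, GSTK1, GSTM3 and GSTO1), which is 19.6% of the members, where 4.66% of all genes were. All 9 were also higher under each of the 3 other scalings. In the same comparison 12 members were lower, 26.1% of the members, where 15.8% of all genes were. Of these, GCLC, GSTO2, HMOX1, PRDX1, SOD2 and SRXN1 were lower under each of the 3 scalings, and GPX8, NQO1, PRDX3, SOD1, TXN and TXNRD1 were not. Among genes that averaged at least 5, 6 of the 30 members were higher, beside 9.83% of all such genes, and 12 of the 30 lower, beside 32.1%. Removal of the GC trend gave 9 higher (6.34% of all genes) and 6 lower (6.61%). Median-of-ratios scaling gave 12 higher (7.69%) and 10 lower (10.0%), and a common total 9 higher (6.05%) and 11 lower (12.0%). The median log2 difference of the 46 members was -0.08 in HPC against hESC, beside -0.14 for all genes.

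**Figure D2:**
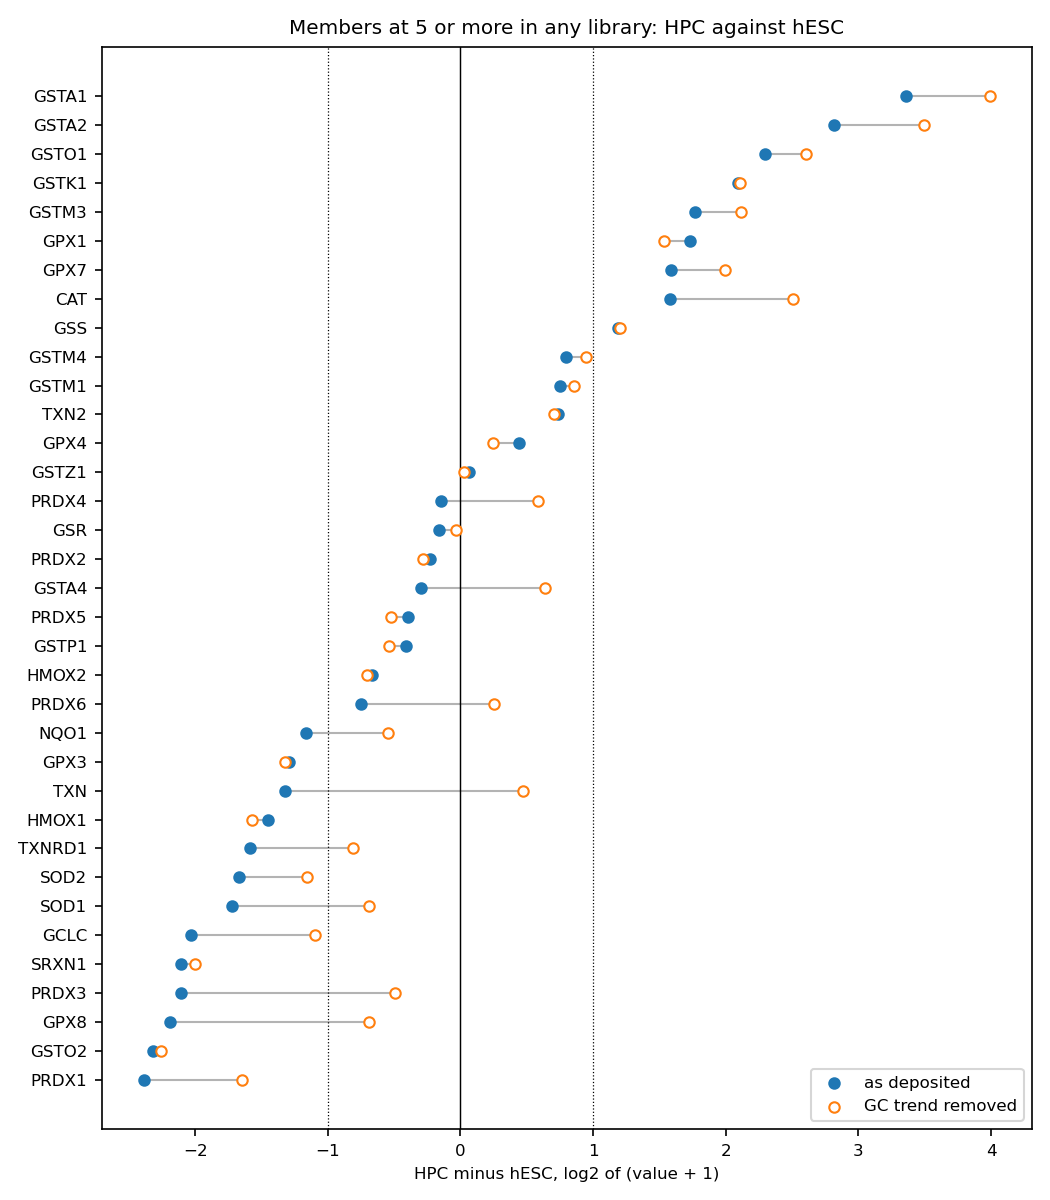
Difference of HPC from hESC, as log2 of (value + 1), for the 35 members that reached 5 in any library, 1 library per stage; filled points are values as deposited, open points have the GC trend removed, and dotted lines mark a difference of 1 in size. Members at the top (GSTA1, GSTA2, GSTO1, GSTK1, GPX1, CAT) keep their side under both, while TXN crosses 0, at -1.32 as deposited and 0.47 with the trend removed.

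Peroxiredoxins form the first line against low levels of hydrogen peroxide. Among them, the cytosolic PRDX1 and the mitochondrial PRDX3 were lower late in the course. The other 4 were not called in any comparison on the deposited values. PRDX1 stood at 1240.29 (hESC), 912.5 (MES), 295.94 (HEP) and 236.72 (HPC). HEP and HPC lay below hESC and MES, with a log2 difference of -1.62 for HEP against MES, and the drop was less steep, at -0.93, with the GC trend removed. Over the whole course PRDX1 in HPC was 5.24-fold lower than in hESC, and it was called lower under all 7 other settings tried.

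PRDX3, a peroxiredoxin of mitochondria, had values of 150.2, 90.12, 21.35 and 34.02 in hESC, MES, HEP and HPC. The log2 difference was -2.03 for HEP against MES as deposited and -0.33 with the GC trend removed, which ends the call. Its transcript has a GC content of 40.7%, among the lowest of the members. PRDX2, the abundant peroxiredoxin of red blood cells, had 206.62, 133.98, 178.02 and 176.5 across these libraries. Its highest value was in hESC as deposited and with the GC trend removed. With median-of-ratios scaling it was highest in HPC, and with a common total in HEP, so its order in hESC and HPC depends on the scaling. PRDX5, found in mitochondria, peroxisomes and cytosol, was lowest in MES, with 256.64, 129.72, 253.56 and 194.47. Its differences fell just short of the limit, at -0.98 for MES against hESC and 0.96 for HEP against MES, but removal of the GC trend took the first to -1.001, where it was called, and median-of-ratios scaling took the second to 1.29.

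PRDX4, the peroxiredoxin of the endoplasmic reticulum, varied little, with 134.98, 153.4, 123.38 and 121.53 in hESC, MES, HEP and HPC. PRDX6, which uses glutathione rather than thioredoxin, had 162.33, 110.25, 91.18 and 96.19. Sulfiredoxin (SRXN1), which repairs peroxiredoxins that peroxide has overoxidised, stood at 11.67 and 11.13 in hESC and MES and at 2.62 and 1.94 in HEP and HPC. Unlike that of PRDX3, its difference was the same with the GC trend removed, at -1.74 for HEP against MES in both cases. Of the 50-base stretches of the SRXN1 transcripts, 84.7% are shared with an overlapping annotated gene, so reads may have been split between them.

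In the thioredoxin system both cytosolic enzymes were lower in HEP than in MES, and the mitochondrial ones were not called. TXN, the cytosolic thioredoxin, stood at 186.8 (hESC), 137.66 (MES), 19.77 (HEP) and 74.17 (HPC), so that the HEP value was the lowest and HPC lay between it and MES. The log2 difference was -2.74 for HEP against MES and 1.86 for HPC against HEP. The later difference held in all 7 other settings and was 1.43 with the GC trend removed; the earlier one became -0.88. The GC content of its transcript is low, at 39.2%. Its difference of HPC from hESC was -1.32 as deposited and, with the trend removed, a positive 0.47.

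TXNRD1, the cytosolic selenoenzyme that recharges thioredoxin and whose selenocysteine codon is shown above, had 63.9, 73.52, 15.31 and 20.57 in hESC, MES, HEP and HPC. HEP was 4.8-fold lower than MES, a log2 difference of -2.19. This was the single member called lower in HEP under every setting tried, with -1.47 once the GC trend was removed. HPC against hESC gave -1.59 as deposited and -0.81 with the trend removed.

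TXN2, the mitochondrial thioredoxin, had 18.12, 15.58, 24.19 and 30.86, and its transcript has a GC content of 56.2%. It ran the other way from TXN in HEP against MES (log2 difference 0.60) and, as deposited, in HPC against hESC (0.74). In the other comparisons the differences of TXN2 and TXN had the same sign. TXN2 was called in no comparison on the deposited values and in HPC against hESC (1.20) with median-of-ratios scaling. The ratio of TXN2 to TXN was 0.097 (hESC), 0.113 (MES), 1.22 (HEP) and 0.416 (HPC), and with the GC trend removed 0.215, 0.2, 0.506 and 0.257. TXNRD2, the mitochondrial reductase, and TXNRD3, a reductase best known from testis, stayed between 1.48 and 2.89 in every library.

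**Figure D3:**
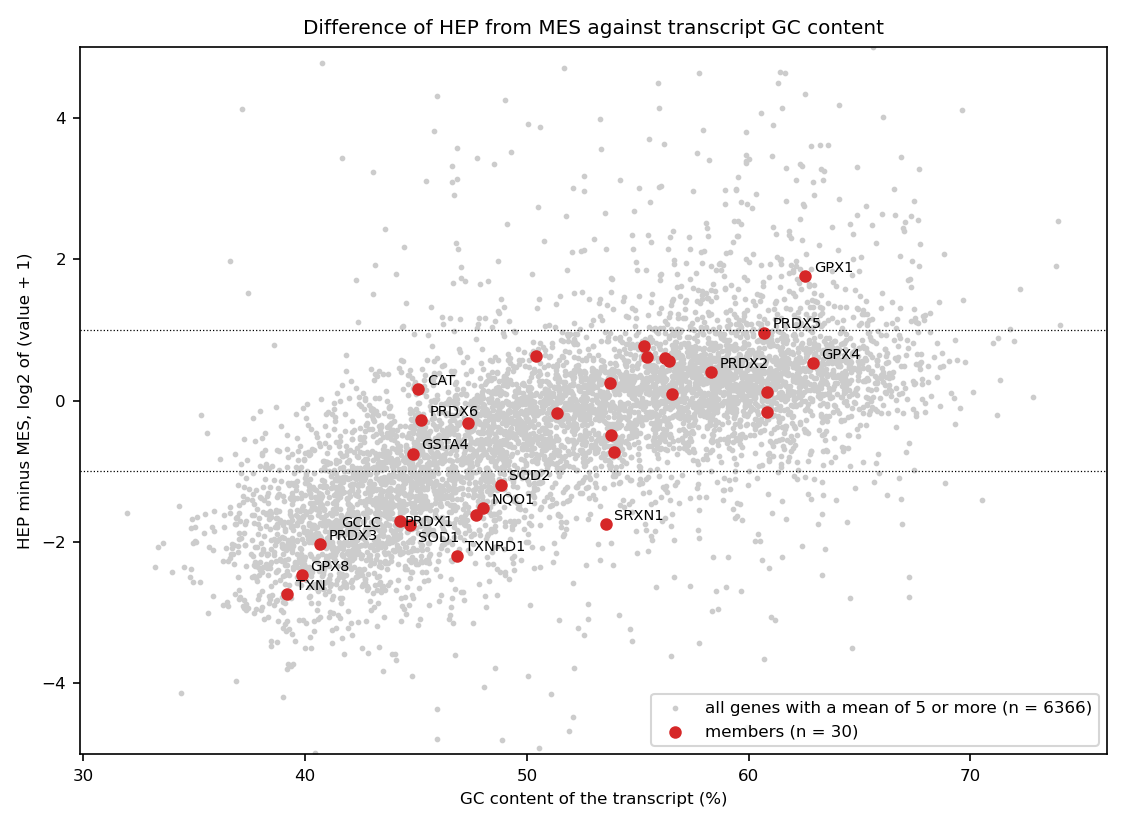
Log2 difference of HEP from MES, as log2 of (value + 1), against the GC content of the transcript (%), for the 6366 genes that averaged at least 5 (grey) and 30 members (red), with dotted lines at a difference of 1 in size and the vertical axis ending at 5 in size. TXN, GPX8 and PRDX3 lie inside the grey cloud at the low-GC end, SRXN1 lies at its lower edge for its GC content, and GPX1 at its upper edge.

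The glutathione peroxidases diverged. GPX1, the main cytosolic selenoperoxidase, stood at 172.84 (hESC), 113.63 (MES), 387.04 (HEP) and 575.62 (HPC). HEP and HPC lay above hESC and MES, and HEP was 3.41-fold higher than MES. The log2 difference of HEP from MES was 1.76, and 1.32 with the GC trend removed; GPX1 was the one member called higher in HEP under all settings. HPC against hESC gave 1.73, likewise called under all settings. Of its 50-base stretches, 21.5% also occur in 2 pseudogenes, of which GPX1P1 holds the most.

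GPX4, the selenoperoxidase that reduces lipid hydroperoxides and protects from ferroptosis, was steady, with 206.75, 193.81, 279.51 and 280.85 in hESC, MES, HEP and HPC. GPX7 and GPX8, peroxidases of the endoplasmic reticulum that lack selenocysteine, parted from each other. GPX7 had 6.41, 15.6, 24.58 and 21.25 in the same order, lowest in hESC, with a log2 difference of 1.16 for MES against hESC and 1.59 for HPC against hESC. GPX8 had 12.83, 11.33, 1.23 and 2.03, low in HEP and HPC, with -2.47 for HEP against MES, which became -1.05 with the GC trend removed. For HPC against hESC, GPX8 had -2.19 as deposited and -0.69 with the trend removed.

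GPX3, the peroxidase secreted into plasma, reached 6.0 in MES and had 2.86, 3.6 and 0.58 in hESC, HEP and HPC. It was called in no comparison on the deposited values: in those with MES the difference was under the limit (0.86 for MES against hESC, and 1.03, a call, with a common total), and in those with HPC neither library reached 5. GPX2, best known from gut epithelium, was at 0.24, 1.67, 3.56 and 0.24. GPX5, the epididymal form, was listed at 0 in 3 libraries and at 0.01 in HPC.

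Glutathione synthesis moved apart at its consecutive steps. GCLC, the catalytic subunit of glutamate-cysteine ligase and the rate-limiting step, stood at 12.37 (hESC), 10.15 (MES), 2.44 (HEP) and 2.27 (HPC). HEP and HPC lay well below the earlier libraries, and HPC was 5.45-fold lower than hESC (log2 difference -2.03, and -1.09 with the GC trend removed). For HEP against MES the difference was -1.70, and -0.72 with the trend removed. GCLM, the modifier subunit that raises the ligase's affinity for its substrate, had 1.98, 2.67, 0.71 and 0.63. After removal of the GC trend it had 0.945, 1.63, 1.53 and 0.982, with a log2 difference of -0.06 for HEP against MES. GSS, glutathione synthetase, which adds glycine in the next step, was higher late, with 15.54, 15.35, 23.95 and 36.75. Its log2 difference was 1.19 for HPC against hESC, and 1.20 with the GC trend removed.

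GSR, the reductase that recharges oxidised glutathione, had 42.85, 40.11, 28.36 and 38.26 in hESC, MES, HEP and HPC and was called in no comparison. The ratio of GSS to GCLC was 1.26 (hESC), 1.51 (MES), 9.82 (HEP) and 16.2 (HPC), and with the GC trend removed 2.07, 2.13, 5.63 and 12.4. The ratio of GPX1 to PRDX1, the main cytosolic peroxidase of each chain, was 0.139, 0.125, 1.31 and 2.43 in the same order, and 0.218, 0.163, 0.777 and 1.99 with the trend removed. Both ratios were higher in HEP and HPC than in hESC and MES with either set of values. Such a ratio does not depend on how a library is scaled, but it does depend on the GC trend. GPX1 and GSS have GC contents of 62.6% and 55.4%, above the 47.7% and 44.3% of PRDX1 and GCLC. What any trend left after its removal adds to these ratios was not tested.

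**Figure D4:**
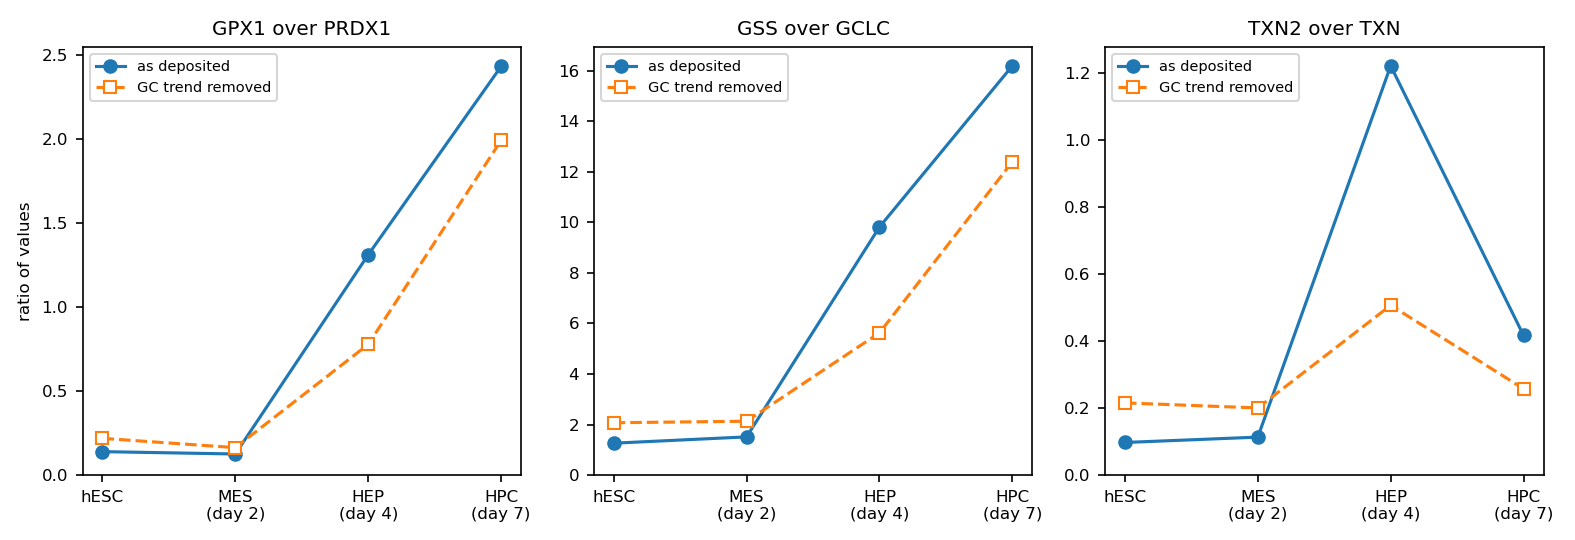
Ratio of the values of GPX1 to PRDX1, GSS to GCLC and TXN2 to TXN by stage, 1 library per stage, on linear axes from 0; filled circles are values as deposited and open squares have the GC trend removed. GPX1 over PRDX1 stands at 2.43 in HPC against 0.139 in hESC, and TXN2 over TXN peaks at 1.22 in HEP as deposited and at 0.506 with the trend removed.

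SOD1 and SOD2 were lower and catalase was higher in HPC than in hESC. SOD1, the cytosolic copper and zinc enzyme, had 228.2, 159.46, 46.33 and 68.49 in hESC, MES, HEP and HPC. The log2 difference was -1.76 for HEP against MES and -1.72 for HPC against hESC, and -0.68 and -0.69 with the GC trend removed, which ends both calls. SOD2, the manganese enzyme of mitochondria, had 44.92, 20.58, 8.47 and 13.46, with -1.67 for HPC against hESC, which was called under all settings. SOD2 was also lower in MES than in hESC (-1.09) and in HEP than in MES (-1.19), both lost with median-of-ratios scaling and with the GC trend removed (-0.89 and -0.79). SOD3, the secreted form, stayed between 0.12 and 0.91.

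CAT, catalase, stood at 7.32 (hESC), 3.93 (MES), 4.51 (HEP) and 23.86 (HPC), so that HPC was above each of the other libraries. HPC was 5.29-fold higher than HEP, with a log2 difference of 2.17, and 1.93 with the GC trend removed, and the call held under all 7 other settings. Against hESC the HPC difference was 1.58, and 2.50 with the trend removed. The HPC library was also the one with blood-cell transcripts: 9 of 13 erythroid markers were at 5 or more there, and the list summed to 9.19, 13.39, 23.59 and 2846.75 in hESC, MES, HEP and HPC. Globins led that sum, with HBG2 at 1508.82, HBG1 at 655.47 and HBE1 at 442.08 in HPC (HBG1 and HBG2 are near-identical and may share reads), while the red cell membrane gene SLC4A1 was at 0.02 and the globin chaperone AHSP at 0.93 in HPC. The 6 megakaryocyte markers summed to 2.78, 1.3, 5.64 and 334.08, and the 7 myeloid markers in the table to 0.76, 1.15, 1.38 and 17.18. Of the myeloid markers LYZ was at 11.63 and CSF1R at 3.72 in HPC, while MPO was at 0.08 and CD14 at 0.02. The 5 leukocyte markers summed to 9.73, 11.91, 9.05 and 60.7, with LCP1 at 22.76, CORO1A at 17.63, RAC2 at 17.17 and PTPRC at 0.04 in HPC. The part of these cells in the HPC values of CAT, GPX1 and the transferases was not tested.

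Heme oxygenase 1 and NQO1, the classical inducible genes of the group, moved in opposite directions on the way to MES. HMOX1, which breaks down heme, stood at 22.0 (hESC), 3.53 (MES), 3.05 (HEP) and 7.41 (HPC). MES was 6.23-fold lower than hESC (log2 difference -2.34, and -2.38 with the GC trend removed), the one lower call of that comparison that held under all settings. HPC was higher than HEP by 1.05 and lower than hESC by 1.45, and the second of these calls held under all settings. HMOX2, the constitutive form, had 27.21, 17.78, 19.1 and 16.77 and was called nowhere.

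NQO1, which reduces quinones by transfer of both electrons at once, peaked in MES, with 22.43, 55.49, 18.75 and 9.46 in hESC, MES, HEP and HPC. Its log2 difference was 1.27 for MES against hESC, called under all settings, and -1.52 for HEP against MES, which became -0.95 with the GC trend removed. For HPC against HEP it was -0.92 as deposited and -1.06 with the trend removed, and for HPC against hESC -1.16 and -0.55. NQO1 and HMOX1 are both regarded as NRF2 targets, and NFE2L2 itself stood at 4.34, 5.9, 1.49 and 1.44.

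Among the glutathione S-transferases, GSTO1 had the largest difference of any member between hESC and MES on the scale of log2 of (value + 1). Some members under 5 in both libraries had larger ratios of MES to hESC, such as 10.7 for GSTA1. GSTO1, an omega-class enzyme that also reduces dehydroascorbate, stood at 26.58 (hESC), 168.94 (MES), 150.08 (HEP) and 134.61 (HPC). All 3 differentiated libraries lay at or above 134.61, and MES was 6.36-fold higher than hESC (log2 difference 2.62, and 2.78 with the GC trend removed). The call held under all settings, for MES against hESC and for HPC against hESC (2.30). GSTO2, its neighbour in class, took the opposite course, with 12.15, 5.59, 2.97 and 1.64. Its log2 difference was -2.32 for HPC against hESC, and -2.26 with the GC trend removed.

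GSTP1, a widely expressed pi-class enzyme, stayed within 711.26 and 947.22, with 947.22, 819.01, 894.71 and 711.26 in hESC, MES, HEP and HPC. GSTK1, the kappa-class enzyme of mitochondria and peroxisomes, had 10.46, 11.61, 20.53 and 47.93. HPC was above HEP by a log2 difference of 1.18 and above hESC by 2.09, the second called under all settings. The first was not called with a common total. With median-of-ratios scaling and with a common total, GSTK1 was also called higher in HEP than in MES. GSTZ1, the zeta-class enzyme of tyrosine breakdown, had 21.04, 9.61, 14.67 and 21.99, lowest in MES (log2 difference -1.06 against hESC, lost with median-of-ratios scaling).

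Apart from GSTA4, the alpha and mu classes were under 5 in hESC, and GSTA1, GSTA2 and GSTM3 were higher in HPC than in HEP and hESC. GSTA1 had 0.31, 3.33, 2.27 and 12.45 in hESC, MES, HEP and HPC, and GSTA2 had 0.16, 1.34, 2.4 and 7.16. On the log2 scale of (value + 1) HPC exceeded HEP by 2.04 for GSTA1 and 1.26 for GSTA2, and by 1.85 and 0.98 with the GC trend removed, which ends the call of GSTA2. Of their 50-base stretches, 28.9% of GSTA1 and 18.4% of GSTA2 are shared with other genes, so the division of reads between the pair is uncertain. GSTM3, a mu-class enzyme that shares 1.5% of its stretches, had 1.53, 2.1, 2.29 and 7.62, and HPC exceeded HEP by 1.39 and hESC by 1.77.

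GSTA4, which detoxifies the lipid peroxidation product 4-hydroxynonenal, had 10.61, 12.44, 6.99 and 8.45 and was called nowhere. GSTM1 had 4.18, 5.04, 6.21 and 7.71, and GSTM4 had 2.72, 2.5, 3.17 and 5.46, each highest in HPC without a call on the deposited values. With median-of-ratios scaling both were called higher in HPC than in hESC, at 1.15 and 1.17. GSTM1 shares 58.5% of its 50-base stretches and GSTM4 11.7% with other genes. The remaining transferases stayed under 5 everywhere: GSTM2 between 1.04 and 3.41, GSTT1 between 2.55 and 4.23, GSTA3 between 0 and 0.49, GSTM5 between 0.01 and 0.27, and GSTT2, which shares 89.0% of its stretches with other genes, between 0 and 0.36. With GCLM, GPX2, GPX5, SOD3, TXNRD2 and TXNRD3 they make up the 11 members that could not be called under the minimum of 5.

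The regulators and suppliers around these enzymes were read from 12 lists chosen with earlier results of these data known, some of which share genes. Their counts stand beside the shares of all genes given above. These were 13.9% lower in HEP against MES and 15.8% lower in HPC against hESC, and 30.0% and 32.1% among genes that averaged at least 5. The shares higher were 3.31% in HEP against MES, 3.01% in HPC against HEP and 4.66% in HPC against hESC. Among genes that averaged at least 5 they were 7.5%, 6.18% and 9.83%. A list's share near these is not a result about the list. Of 11 regulators of NRF2, none was higher and 3 were lower in HEP than in MES, near that background: NFE2L2, at 1.49 in HEP against 5.9 in MES, the ligase scaffold CUL3, at 1.65 in HEP against 7.12 in MES, and the repressor BACH1, at 1.14 in HEP against 7.83 in MES. With the GC trend removed BACH1 alone remained, with -1.04. Of the small MAF proteins, the DNA-binding partners of NRF2, MAFK was at 2.11 in MES against 6.04 in hESC, and MAFF at 1.24 in HPC against 5.96 in HEP. KEAP1, the sensor that holds NRF2 in check, stood at 32.79, 23.85, 30.81 and 39.96 in hESC, MES, HEP and HPC. Of 17 other NRF2 targets, 2 were higher and 2 lower in HEP than in MES. AKR1C1, an aldo-keto reductase, had 1.01, 4.04, 9.86 and 56.0, highest in HPC, and AKR1C3 had 4.68, 3.95, 25.65 and 6.42, highest in HEP. SLC7A11 and the ferritin heavy chain FTH1 (92.3, 161.14, 71.22 and 113.45 in hESC, MES, HEP and HPC) were the lower ones. PIR, an iron-binding nuclear protein, was at 2.34 in HPC, against 7.16 in HEP and 9.19 in hESC. TALDO1, a pentose phosphate enzyme, was lowest in MES and HEP, with 159.74, 61.19, 69.81 and 144.54. In the same list TXNIP, which binds thioredoxin, was listed at 0 to 0.02, and such a value may be a failed estimate.

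Of 14 genes that supply or break down glutathione, none was higher and 6 were lower in HPC than in hESC, with 4 lower once the GC trend was removed. The median log2 difference of the list was -1.02, beside -0.14 for all genes and -0.44 for genes that averaged at least 5. With the trend removed it was -0.80, beside 0.0 and -0.03. SLC7A11, the cystine importer that brings in the cysteine for glutathione, had 3.46, 7.28, 0.25 and 0.23 in hESC, MES, HEP and HPC. Its partner SLC3A2 had 80.27, 137.61, 53.07 and 31.08, so both chains of the importer were highest in MES and both were lower in HEP than in MES; with the GC trend removed SLC7A11 was not called there, at -1.74 with under 5 in MES. CBS, which starts the synthesis of cysteine from homocysteine, had 216.81, 150.19, 64.92 and 51.31, with a log2 difference of -2.06 for HPC against hESC and -2.16 with the trend removed. GGCT, which acts on gamma-glutamyl amino acids, had 59.26, 13.2, 2.56 and 6.39. CHAC1 and CHAC2, which cleave glutathione, were at 1.66 and 2.66 in HPC, against 6.09 and 11.39 in hESC, and the peptidase LAP3 was at 19.13 in HPC, against 41.03 in hESC. OPLAH, which opens oxoproline to glutamate, was at 1.14 in HPC against 6.03 in HEP, and GGT7 at 1.22 in HPC against 5.22 in HEP. With the trend removed CHAC2, LAP3, OPLAH and GGT7 were not called in these comparisons.

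Of 15 genes of NADPH supply, 1 was higher and 2 were lower in HPC than in hESC, where 4.66% of all genes were higher and 15.8% lower. With the GC trend removed 3 were higher (ME1 and NNT with IDH2) and 1 lower (IDH1), and the median log2 difference of the list was 0.27, against -0.41 as deposited. The isocitrate dehydrogenases parted by compartment: the cytosolic IDH1 had 303.79, 239.76, 47.73 and 47.8 in hESC, MES, HEP and HPC, and the mitochondrial IDH2 had 41.78, 50.89, 143.64 and 116.25. For HEP against MES their log2 differences were -2.30 and 1.48 as deposited, against -1.23 and 1.25 after removal of the trend. Of the folate enzymes that also yield NADPH, MTHFD1 had 59.21, 26.32, 15.92 and 22.48, and the mitochondrial MTHFD2 had 125.83, 83.37, 29.5 and 69.3. The difference of MTHFD2 in HEP against MES was -1.47 as deposited and 0.15 with the trend removed.

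Of 23 thioredoxin-fold partners in the table, none was higher and 9 were lower in HPC than in hESC, near the background of genes that averaged at least 5. With the GC trend removed, 2 were higher (GLRX2 and TMX2) and 1 lower (SELM). Examples are the glutaredoxin GLRX3, at 31.27 in HPC against 80.34 in hESC, and the endoplasmic reticulum oxidoreductases PDIA6, at 124.74 in HPC against 283.39 in hESC, and PDIA3, at 62.12 in HPC against 142.04 in hESC. The others were TXNDC9 (6.55 in HPC against 29.12 in hESC), TXNDC17 (14.13 against 38.34), TXNL1 (23.66 against 49.95), SELM (2.5 against 9.77) and the membrane-bound TMX1 (4.91 against 31.33) and TMX3 (2.72 against 7.05). The glutaredoxin GLRX, which removes glutathione from proteins, was at 6.08 in HEP, against 14.39 in MES, a call lost with the trend removed, and at 14.89 in HPC. Nucleoredoxin (NXN) was highest in MES, with 23.07, 62.67, 25.5 and 18.84 in hESC, MES, HEP and HPC, and TXNDC5 highest in HEP, with 83.65, 90.42, 161.7 and 69.78. Of 21 genes for selenoprotein synthesis or other selenoproteins, none was higher and 5 were lower in HEP than in MES, with 1 lower once the trend was removed. SEPHS1, related to the selenophosphate synthetase, had 227.53, 28.76, 12.58 and 10.7 in hESC, MES, HEP and HPC, with -2.94 for MES against hESC and -2.68 with the trend removed. SEPHS2, the selenophosphate synthetase itself, had 8.2, 6.1, 4.87 and 4.31, while the selenoprotein SEPN1 had 2.71, 8.49, 15.18 and 12.58. SEPN1 and DIO3, which inactivates thyroid hormone, were the ones higher in MES than in hESC, and DIO3 had 0.19, 11.48, 3.29 and 0.56. Among those lower in HEP than in MES were SELK (13.14 in HEP against 37.59 in MES), SELT (4.57 against 14.05) and EPT1 (4.63 against 15.46), none of them called with the trend removed. In HPC against hESC, EPT1 (4.96 in HPC against 12.97 in hESC), SECISBP2, which binds the selenocysteine insertion element (3.09 against 8.83), and SEPW1 (126.85 against 282.36) were lower, and of these SEPW1 was called with the trend removed. SCLY, which frees selenium from selenocysteine, was at 4.37 in MES against 10.9 in hESC.

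Of 12 microsomal and other transferase-like genes, 2 were higher and 3 lower in HPC than in hESC. Of all genes, 4.66% were higher and 15.8% lower. MGST1, a membrane-bound transferase and peroxidase, had 76.97, 33.69, 3.84 and 5.2 in hESC, MES, HEP and HPC, and MGST2 had 6.47, 28.04, 8.1 and 49.33. CLIC1, a chloride channel protein with a transferase fold, had 251.03, 235.62, 1040.0 and 684.29. CLIC4 had 61.2, 37.9, 13.4 and 8.95, and GDAP1, of the outer mitochondrial membrane, had 12.04, 2.49, 0.23 and 0.99; CLIC4 was not called with the GC trend removed. For HEP against MES the log2 difference of CLIC1 was 2.14, and 2.15 with the GC trend removed. A further list held 8 genes, the MSR genes for the repair of methionine sulfoxide together with the sestrins and PARK7. Of these, MSRB2 alone was higher in HPC than in hESC, at 9.63 in HPC against 3.84 in hESC, and none was lower. MSRB2 was also higher in HEP (7.55) than in MES (2.64), and SESN1, a stress-induced sestrin, in HPC (8.4) than in HEP (3.14), SESN1 not being called with the GC trend removed.

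In HPC against HEP 3.01% of all genes were higher and 3.57% lower, and 6.18% and 8.28% of those that averaged at least 5. Of 11 genes for heme breakdown and iron storage in the table, 3 were higher and none lower in HPC than in HEP. They were the biliverdin reductase BLVRB, at 115.98 in HPC against 14.69 in HEP, the iron exporter SLC40A1, at 9.5 in HPC against 0.77 in HEP, and the heme transporter SLC48A1, at 17.66 in HPC against 6.18 in HEP. The ferritin light chain FTL had 672.92, 1043.53, 965.22 and 1759.08 in hESC, MES, HEP and HPC. FTH1, BLVRB and the heme exporter FLVCR1 (0.56 in HEP against 5.81 in MES) were lower in HEP than in MES, and the biliverdin reductase BLVRA was at 7.07 in HPC against 17.46 in hESC; FLVCR1 and BLVRA were not called with the GC trend removed. Of 19 oxidant-producing enzymes, 3 were higher and none lower in HPC than in HEP, beside the same shares of all genes. The 3 were the NADPH oxidase subunits CYBA (340.31 in HPC against 107.32 in HEP) and NCF4 (16.5 in HPC against 0.02 in HEP), and RAC2 (17.17 in HPC against 3.24 in HEP). CYBB, the catalytic subunit of the phagocyte oxidase, was listed at 0.01 or less in all 4 libraries. ERO1A, the oxidase of the endoplasmic reticulum, was at 2.12 in HEP against 6.38 in MES, and RAC1 at 10.06 in HPC against 21.67 in hESC; with the GC trend removed neither was called, at -0.31 and -0.56. Of 12 genes linked to ferroptosis, 4 were lower in HEP than in MES, near the background of genes that averaged at least 5. The 4 were SLC7A11, the transferrin receptor TFRC (4.77 in HEP against 49.95 in MES), FANCD2 (5.21 against 17.92) and ACSL4 (1.15 against 5.33). TFRC was the one still called with the GC trend removed, while SLC7A11 kept a difference of -1.74 but fell under the minimum of 5. ALOX12, a lipoxygenase of platelets, was at 5.92 in HPC against 0.68 in HEP. Of 5 partners of the superoxide dismutases, SLC39A8, a manganese importer, was the one lower in HEP than in MES, at 5.15 in HEP against 12.1 in MES, a log2 difference of -1.09 as deposited and 0.10 with the GC trend removed.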

How the data were processed

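RNA was measured in 4 libraries, 1 per stage, so each group has 1 sample and no test, SD or p-value is given. Trizol extraction and a TruSeq RNA kit were used, per the labels' protocols. Each deposited table gives a normalised signal for every gene, and the authors used BWA, Bowtie and RSEM with the build hg19, per the submitters' processing notes; their versions and roles, the measure, the annotation and the strand setting were not stated in what was used here. Since strand use is unknown, reads of a gene and of one overlapping it on the other strand cannot be told apart. Steps of whole reads could not be found among low values, so the depth is unknown and no interval or floor is given.

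Each table had 17634 rows; 28 symbols had become dates, and 4 rows that shared 2 names were left out, leaving 17630 genes. Members were all rows whose symbol fits the family names, and each is reported: the 35 at 5 or more in any library with all 4 values, the other 11 by their range. Members and gene lists were chosen with earlier results of these data known. Differences are log2 of (value + 1), which understates the change of low genes; fold values are ratios of deposited values. Counts over all genes use the same rule of size. The GC content of a transcript came from GENCODE 29 by symbol for 17428 genes (98.9%) and 45 members, all but GSTT1. Its trend was the median deviation in 50 GC bins, smoothed over 5 bins, and was subtracted from each library. Shared sequence was counted in 50-base stretches across GENCODE genes. Member values and the counts of members and lists were recomputed after removal of the GC trend, with median-of-ratios scaling, with a common total, with the minimum dropped or set to 20, and with pseudocounts of 0.1 or 5. Python 3.11.15 with pandas 2.3.3 and numpy 2.4.6 was used. The rule of size alone was tested on simulated data, with large changes planted in a copy of the hESC values. The other steps were not tested in this way.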

Additional observations from a re-analysis of the deposited data

How the results depend on the processing

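These counts of members differed by over 1.5 times from those on the deposited values. For MES against hESC, 6 were higher with no minimum, and 1 was lower with a pseudocount of 5, with median-of-ratios scaling and with a common total. For HEP against MES, 3 were higher with median-of-ratios scaling, a common total or the GC trend removed, and 3 were lower with the GC trend removed. For HPC against HEP, 4 were higher with a pseudocount of 5 and 3 with a minimum of 20, while 2 were lower with no minimum and 1 with a common total or with the GC trend removed. For HPC against hESC, 6 were lower with the GC trend removed. The log2 difference of TXN in HPC against hESC was reversed by removal of the GC trend, at 0.474. Which of these values is nearer to the amounts of RNA in the cells was not tested. No paired analysis was possible because each group has 1 library. One library per stage, an unknown number of reads and sequence shared with other genes limit the precision of every value.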
